A study of Rattus norvegicus with 13 samples.

Results

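GABA is the main inhibitory transmitter of the adult brain, and 27 genes of its receptors, its synthesis, uptake and breakdown, its postsynaptic scaffold and the interneurons that release it were followed through 13 arrays of aged rat brain. The genes were listed by name. A gene was read from the probe sets that the platform annotation gives to it alone, taking the probe set with the highest mean where there were several. Each probe set combines several short probes for a transcript into 1 log2 signal. All 27 genes were found, each with exactly 1 probe set, out of 14506 genes named on the array. The animals were male Fischer F344 rats, an inbred strain, 15 months old. The 7 arrays of the control group came from offspring of mothers on a control diet, and the 6 arrays of the fructose group from offspring of mothers on a high fructose diet. Both maternal diets began on gestation day 1 and lasted through gestation and lactation, and all offspring were weaned on day 20 to the same chow. The RNA was that of the brain with the cerebellum removed. The labels name neither litters nor separate animals, so the p-values measure only the spread between these samples, which may in part be technical.

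GABA is made from glutamate by the glutamate decarboxylases. It opens GABA-A receptors, pentameric chloride channels in which alpha, beta and gamma subunits form most synaptic receptors and delta replaces gamma in many receptors outside the synapse. It also acts on GABA-B receptors, which are coupled to G proteins and work as pairs of unlike subunits. The subunit genes differ widely in where in the brain they are used, and the interneurons fall into classes named for a calcium-binding protein or a peptide.

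Of the tissue's own markers, the pan-neuronal gene Rbfox3 lay between 10.86 and 11.37 log2 units on the 13 arrays. The probe set of Gabra6, the alpha subunit of cerebellar granule cells, lay between 5.41 and 6.01. The table gives no detection p, so the distance of dim signals from background cannot be judged. Levels of different probe sets are compared only where a gene is called dim or where spread is described. Several arrays stood apart. Array medians were 7.99 to 8.07, but the interquartile range of control 1 and control 2 was 2.19 and 2.15 against 2.26 to 2.50 on the others. Control 8, fructose 4 and fructose 3 carried the most Slc17a6, the vesicular glutamate transporter of thalamus and brainstem, at 9.15, 8.04 and 7.83 against 6.07 to 6.82 on the other 10 arrays. Called relations that rest on these arrays are given with and without them.

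None of the 27 genes passed the test for a difference between the maternal diets. In the limma fit over 15633 probe sets, 0 passed an adjusted p of 0.05 (0% of all probe sets), and 0 of the 27 did. At an unadjusted p under 0.05 there were 348 probe sets (2.23%) and 0 of the 27 genes, whose smallest adjusted p was 0.9998. The control and fructose arrays overlapped for all 27 genes, where 6 of the probe sets tested (0.0384%) had groups without overlap. Fructose minus control was above 0 for 12 genes and below 0 for 15, with a median of -0.0064 log2 units against 0.0056 over all probe sets. Of all probe sets, 8453 were above 0 and 7180 below. The 95% interval of the difference lay within a 1.2-fold change for 16 of the 27 genes, within 1.5-fold for 25 and within 2-fold for all 27. In the whole table these counts were 13230, 15474 and 15621 of 15633.

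**Figure D1:**
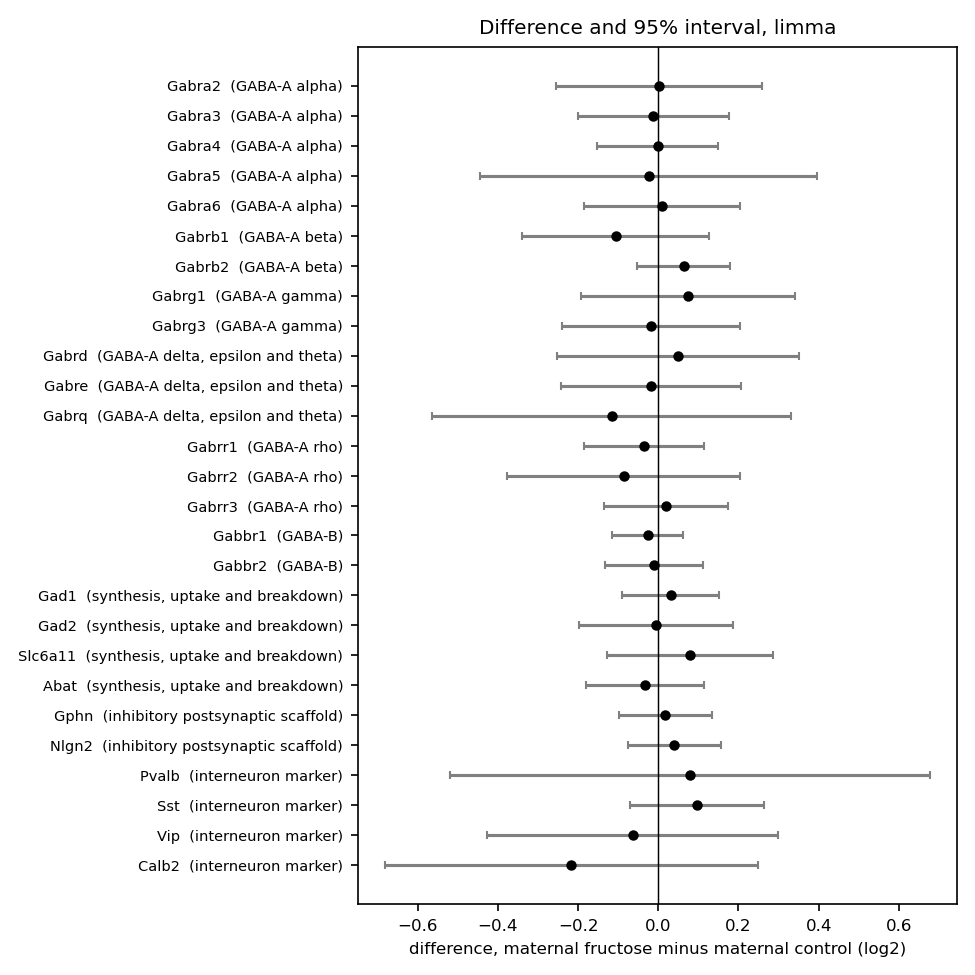
Fructose minus control in log2 units for the 27 genes, grouped by class, with the 95% interval from limma as bars. All 27 intervals cross 0, and the widest are those of Pvalb, Calb2 and Gabrq.

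The alpha subunits differ in where in the brain and on the neuron their receptors lie, and in the drugs those receptors bind. Gabra2, the alpha of many forebrain synapses, lay between 10.73 and 11.33 log2 units in control (mean 11.03 ± 0.20, SD, n = 7) and between 10.77 and 11.51 in fructose arrays (11.03 ± 0.28, SD, n = 6), a difference of 0.0021 ± 0.12 (SE). The groups covered nearly the same range, with fructose 4 and control 8 at the top. Gabra3 differed by -0.012 ± 0.088 and Gabra4, which pairs with delta in thalamus, striatum and dentate gyrus, by -0.0016 ± 0.071. Gabra5, the subunit of tonic inhibition in hippocampal pyramidal cells, ran from 10.02 through a median of 10.57 to 11.23 in control and from 10.16 through 10.47 to 11.16 in fructose arrays. Its mean was 10.61 ± 0.45 (SD, n = 7) and 10.59 ± 0.35 (SD, n = 6), so the difference of -0.024 ± 0.20 was small beside its spread, and the interval reached from -0.44 to 0.40. Gabra6 differed by 0.0090 ± 0.091.

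Of the beta subunits, which help form the site where GABA binds, Gabrb2 was 11.18 ± 0.09 in control and 11.24 ± 0.10 in fructose arrays, a difference of 0.064 ± 0.054 with an interval of -0.05 to 0.18. Gabrb1 was 10.64 ± 0.16 against 10.53 ± 0.27, a difference of -0.11 ± 0.11. Fructose 4 alone was at 11.08, and without it the difference was -0.21. The 2 beta genes lay on opposite sides of 0 and neither passed the test. The gamma subunits anchor receptors at synapses. Gabrg1 had a lowest, median and highest signal of 9.54, 9.82 and 10.43 in control and 9.64, 9.92 and 10.29 in fructose arrays, a difference of 0.074 ± 0.13. Its highest arrays were again control 8 and fructose 4, one of each diet. Gabrg3 differed by -0.019 ± 0.10.

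Delta, epsilon and theta are the less common partners. Gabrd, of receptors outside the synapse, was 8.72 ± 0.15 in control and 8.77 ± 0.39 in fructose arrays, where fructose 4 alone was at 8.02 and the other 5 lay between 8.76 and 9.15. The difference was 0.050 ± 0.14. Gabrq, the theta subunit, is used in hypothalamus and brainstem monoamine nuclei. It ran from 5.94 through a median of 6.33 to 7.29 in control and from 5.76 through 6.20 to 6.93 in fructose arrays, with control 8 and fructose 4 highest, and differed by -0.12 ± 0.21. Gabre, epsilon, differed by -0.017 ± 0.11. The rho subunits form receptors known best from the retina. Gabrr1, Gabrr2 and Gabrr3 differed by -0.036 ± 0.070, -0.086 ± 0.14 and 0.020 ± 0.073.

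Of the GABA-B genes, Gabbr1, whose product binds GABA, varied least among the 27 genes. It was 11.91 ± 0.07 in control and 11.89 ± 0.04 in fructose arrays, with a within-group SD above that of only 5.62% of all probe sets. Its difference was -0.026 ± 0.041 with an interval of -0.11 to 0.06, the narrowest among the 27 genes. Gabbr2, which couples the receptor to its G protein, differed by -0.010 ± 0.057, from -0.13 to 0.11.

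The genes of synthesis covered like ranges in both groups. Gad1, the decarboxylase that makes most of the brain's GABA, had a lowest, median and highest signal of 10.24, 10.38 and 10.47 in control and 10.16, 10.39 and 10.49 in fructose arrays, a difference of 0.031 ± 0.057 (interval -0.09 to 0.15). Gad2, the decarboxylase of nerve endings, was 10.83 ± 0.18 in both groups, a difference of -0.0064 ± 0.090. Slc6a11, the transporter that takes GABA into astrocytes, was 10.01 ± 0.23 against 10.09 ± 0.13, a difference of 0.079 ± 0.097. Abat, the transaminase that breaks GABA down, differed by -0.033 ± 0.069. For the scaffold, Gphn, whose product gephyrin holds receptors in place, differed by 0.017 ± 0.054, and Nlgn2, the adhesion protein of inhibitory synapses, by 0.040 ± 0.054.

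Of the interneuron markers, Pvalb, Calb2 and Vip had wide intervals, and for none of the 4 did the interval lie within a 1.2-fold change. Pvalb, of fast-spiking basket and chandelier cells and of the thalamic reticular nucleus, had a lowest, median and highest signal of 8.40, 10.08 and 10.14 in control and 8.97, 10.11 and 10.31 in fructose arrays. The groups overlapped throughout, and the low values were those of control 8, fructose 3 and fructose 4. Its difference of 0.078 ± 0.28 had an interval of -0.52 to 0.68, the widest of all 27, and ran from -0.15 to 0.26 when each array was left out in turn. Sst, of dendrite-targeting cells, ran from 11.20 through a median of 11.45 to 11.67 in control and from 11.38 through 11.53 to 11.77 in fructose arrays, a difference of 0.096 ± 0.078 with an interval of -0.07 to 0.26. Vip, of cells that inhibit other interneurons, differed by -0.064 ± 0.17. Calb2, of calretinin cells, differed by -0.22 ± 0.22, where control 8 alone was at 8.67 and the other 6 control arrays lay between 7.06 and 7.60. Without control 8 the Calb2 difference was -0.017.

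In bulk tissue, fewer cells of a type and less RNA per cell cannot be told apart. The 27 genes varied more within a diet group than most of the array: their median within-group SD was 0.18 log2 units against 0.115 over all probe sets. For 12 of them (44.4%) the SD was above the 90th percentile of all probe sets, which holds 10% of the table by construction. Pvalb, Calb2, Gabrq, Gabra5 and Vip (18.5% of the genes) were above the 98th. These comparisons of spread were not matched for signal level, which in control arrays averaged 9.43 for the 27 genes and 8.02 over all probe sets. Control 8 held the highest or lowest value of 11 of the 27 genes, 6 highest and 5 lowest. That is 40.7% of the genes, where it held an extreme of 22.5% of all probe sets. Fructose 7 did so for 8 genes (29.6%, against 13.1% of all probe sets), fructose 4 for 6 (22.2% against 14.5%) and control 2 for 6 (22.2% against 28.2%). Control 4 and fructose 2 did so for 0 genes, against 6.84% and 6.26% of all probe sets. The share of the genes was also below that of the table on control 1 (18.5% against 25.7%), control 5 (11.1% against 24.9%) and control 7 (7.41% against 11.9%). So it was on fructose 1 (3.7% against 8.72%) and, barely, fructose 3 (11.1% against 11.3%). It was above on control 3 (18.5% against 14.1%) and fructose 8 (14.8% against 12.1%).

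**Figure D2:**
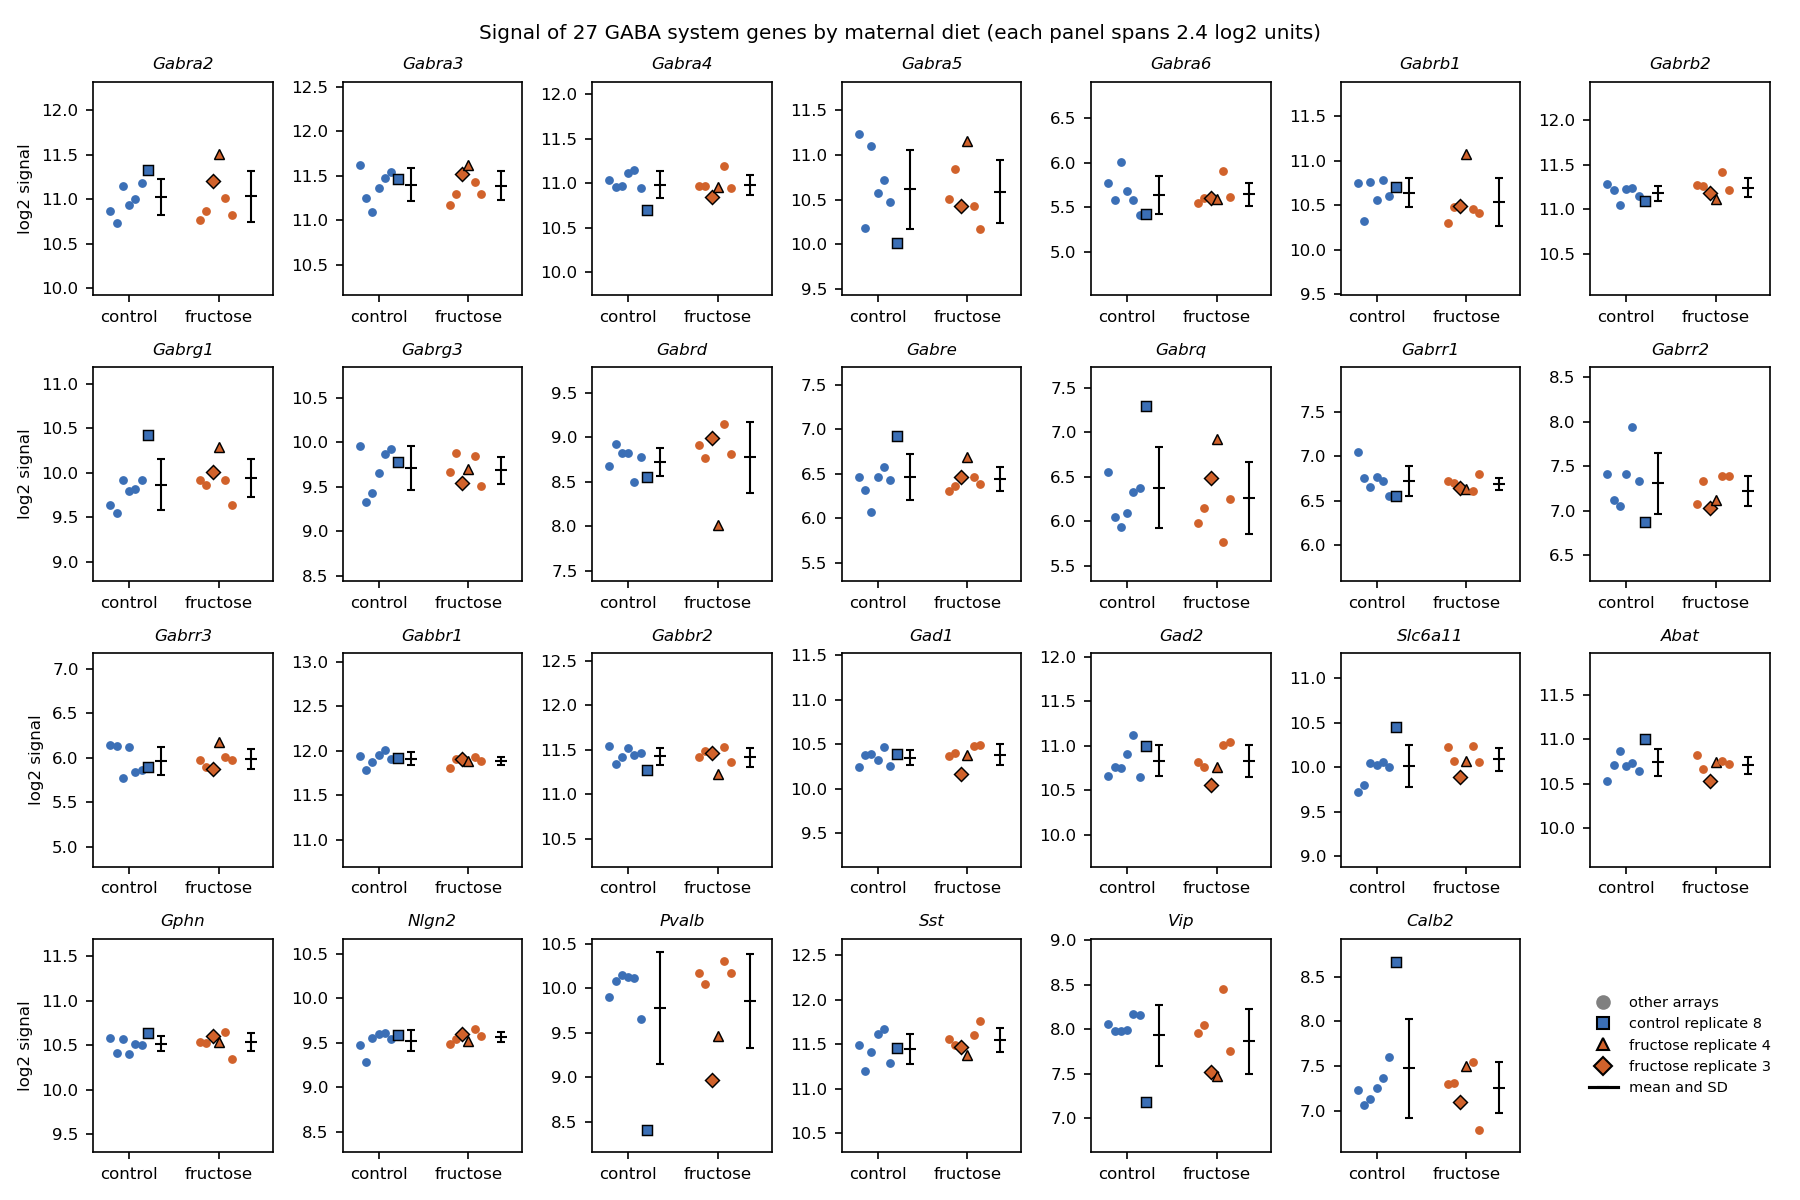
Log2 signal of the 27 genes, 1 panel per gene and 1 point per array, for the 7 control and 6 fructose arrays, with the mean and SD of each group as bars; every panel spans the same number of log2 units. The square (control 8) and the triangle (fructose 4) are at the top for Gabrq, Gabrg1 and Gabra2 and among the lowest for Pvalb and Vip.

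To describe this variation, every probe set was fitted in limma against 8 indices, each the mean log2 signal of marker genes of a region or of astrocytes, which makes 216 relations for the 27 genes. A slope is the change of a gene in log2 units per log2 unit of the index. The thalamus and midbrain index, from 8 of 11 listed markers, passed for 577 of 15625 probe sets (3.69%) and for 5 of the 27 genes (18.5%). By direction, 3 genes were higher with the index (1.96% of probe sets were) and 2 lower (1.73% of probe sets were). Gabra2, Gabrg1 and Gabrq were higher and Pvalb and Vip lower where the index was higher. Most of the index came from a pair of its markers: Slc17a6 made up 52.9% of its variance and Ntng1, a netrin-G of thalamic axons, 32.2%, followed by Lhx9 with 11.3% and Zic1 with 9.5%. The other 4 markers, Prkcd, Shox2, Lef1 and Tnnt1, did not rise with it, and their r with the mean of the other markers was -0.149, -0.197, -0.218 and -0.464. The index is therefore a measure of Slc17a6 and Ntng1 more than of the region it is named for.

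Upstream sequences are shown for Vip, Pvalb, Gabrq and Gabrg1, the genes with the steepest slopes on this index among those that passed. They are the 250 bases before the RefSeq start, rat build GRCr8, with 3 motifs in capitals, sought on both strands: TATAAA, the TATA box core; GGGCGG, the GC box core; and TGACG, the core of a cAMP response element. The motifs do not overlap each other here. Vip lies at chr1:44470230-44470479 on the plus strand, Pvalb at chr7:111666290-111666539 on the minus strand, Gabrq at chrX:155738186-155738435 and Gabrg1 at chr14:37750042-37750291 on the plus strand.
Vip: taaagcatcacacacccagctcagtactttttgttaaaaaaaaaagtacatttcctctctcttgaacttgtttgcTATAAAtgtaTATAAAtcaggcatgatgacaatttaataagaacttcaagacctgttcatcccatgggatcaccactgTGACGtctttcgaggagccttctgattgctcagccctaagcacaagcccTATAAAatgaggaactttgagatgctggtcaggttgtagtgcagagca
Pvalb: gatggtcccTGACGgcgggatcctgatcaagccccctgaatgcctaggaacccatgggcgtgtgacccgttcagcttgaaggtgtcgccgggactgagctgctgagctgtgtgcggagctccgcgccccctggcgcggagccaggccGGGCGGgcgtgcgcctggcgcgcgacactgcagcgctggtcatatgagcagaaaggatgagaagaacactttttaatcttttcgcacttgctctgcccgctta
Gabrq: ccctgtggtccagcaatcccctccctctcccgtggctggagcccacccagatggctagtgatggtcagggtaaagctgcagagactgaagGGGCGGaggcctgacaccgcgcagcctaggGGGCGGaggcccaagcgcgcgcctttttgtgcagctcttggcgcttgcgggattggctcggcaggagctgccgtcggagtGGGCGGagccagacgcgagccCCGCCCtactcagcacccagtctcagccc
Gabrg1: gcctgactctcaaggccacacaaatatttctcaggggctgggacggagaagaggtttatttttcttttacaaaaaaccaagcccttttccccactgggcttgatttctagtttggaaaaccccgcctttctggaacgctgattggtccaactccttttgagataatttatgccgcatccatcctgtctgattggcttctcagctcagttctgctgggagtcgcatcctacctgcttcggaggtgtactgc
GC content was 40.0% for Vip, 62.8% for Pvalb, 68.0% for Gabrq and 48.4% for Gabrg1. Vip, a gene known to be induced through cAMP, had TATAAA 3 times and TGACG once. Pvalb had GGGCGG and TGACG once each, Gabrq had GGGCGG 4 times and Gabrg1 had none of the 3 motifs. Among 33469 promoters of the same length, 12.9% held TATAAA, 30.5% GGGCGG and 18.2% TGACG. Of the 24 matched genes of the set, 4 held TATAAA, 13 GGGCGG and 4 TGACG. A match is a description of the letters in this window and not a site.

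Vip, whose upstream sequence is the first of those above, had the largest r in size of the 5 genes. Its lowest, median and highest signals were 7.18, 7.99 and 8.17 in control and 7.47, 7.86 and 8.45 in fructose arrays. Control 8, fructose 4 and fructose 3, the arrays highest in Slc17a6, were its 3 lowest, at 7.18, 7.47 and 7.53. The slope was -1.51 ± 0.24 (adjusted p = 0.00342, limma), with r = -0.86 (permutation p = 0.0003) and rho = -0.67 (permutation p = 0.0151). Without control 8 and fructose 4, the 2 arrays farthest from the median of the index, r was -0.60, and without fructose 3 as well it was -0.353.

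Pvalb had a slope of -2.34 ± 0.44 (adjusted p = 0.0085), r = -0.81 (permutation p = 0.00683) and rho = -0.45 (permutation p = 0.126). Without those 2 arrays r was -0.51, and without fructose 3 as well it was -0.00265. The gene was at 8.40 on control 8, 8.97 on fructose 3 and 9.47 on fructose 4 against at least 9.66 on each other array.

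The 3 subunit genes went the other way. Gabrq had a slope of 1.75 ± 0.34 (adjusted p = 0.0101), r = 0.80 (permutation p = 0.00299) and rho = 0.45 (permutation p = 0.126), and r was 0.13 without control 8 and fructose 4. Gabrg1 had a slope of 1.03 ± 0.21 (adjusted p = 0.0131), r = 0.81 (permutation p = 0.00288) and rho = 0.59 (permutation p = 0.035), and r was 0.20 without them. Both relations therefore rest on those 2 arrays. Gabrq is among the dim genes of the array, brighter than only 15.6% of genes, each by the mean of its brightest probe set. Gabra2 had a slope of 0.95 ± 0.21 (adjusted p = 0.0188), r = 0.79 (permutation p = 0.00165) and rho = 0.65 (permutation p = 0.0189), and r was 0.515 without them. Without fructose 3 as well, r was 0.325 for Gabra2, -0.0611 for Gabrg1 and -0.147 for Gabrq.

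No call of the thalamus and midbrain index held in every setting. Without control 8 it passed for 0 of the 27 genes (128 probe sets in all), without control 8 and fructose 4 for 0 (0 probe sets), and with each marker scaled to the same variance for 0 (0 probe sets). Control 8 was also highest for Avp at 8.93 and for Sim1 at 7.99 (others up to 6.82), both of hypothalamus, and for Calb2. Oxt, Gal and Cartpt of the hypothalamus list were also highest there. Ghrh at 6.715 and Hdc at 6.28 were lowest there, and Hcrt, Pmch, Agrp, Pomc and Otp were highest on other arrays. The control 8 indices of striatum, brainstem and spinal cord, hypothalamus and astrocytes were also the highest of the 13 arrays, and its cortex and hippocampus index of 8.95 was the lowest. Not every marker followed its index. Slc6a5 and Glra1 made up 43.6% and 22.4% of the variance of the brainstem and spinal cord index, while Hoxb3, Tph2 and Slc6a2 were highest on control 2. In striatum, Rasd2 and Scn4b were highest on fructose 1, with r of 0.021 and -0.431 with the mean of the other markers. Fructose 4 and control 8 had the highest meninges index, at 8.62 and 8.52. Some of the genes ran with some of those indices too, without passing in limma. With cortex and hippocampus r was 0.726 for Pvalb (permutation p = 0.0161) and 0.634 for Vip (permutation p = 0.0241). Their rho was 0.231 (permutation p = 0.447) and 0.5 (permutation p = 0.0852), and r without control 8 and fructose 3 was -0.316 and -0.054. With meninges r was 0.703 for Gabrg1 (permutation p = 0.00703) and 0.691 for Gabra2 (permutation p = 0.0088). Their rho was 0.593 (permutation p = 0.0359) and 0.544 (permutation p = 0.0578), and r without control 8 and fructose 4 was 0.211 and 0.273. Other slopes were near 0: that of Gabra2 was 0.022 with hypothalamus (unadjusted p = 0.967, limma) and 0.151 with striatum (unadjusted p = 0.765, limma). Where a gene ran with several indices, which of them it follows cannot be told apart on these arrays.

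**Figure D3:**
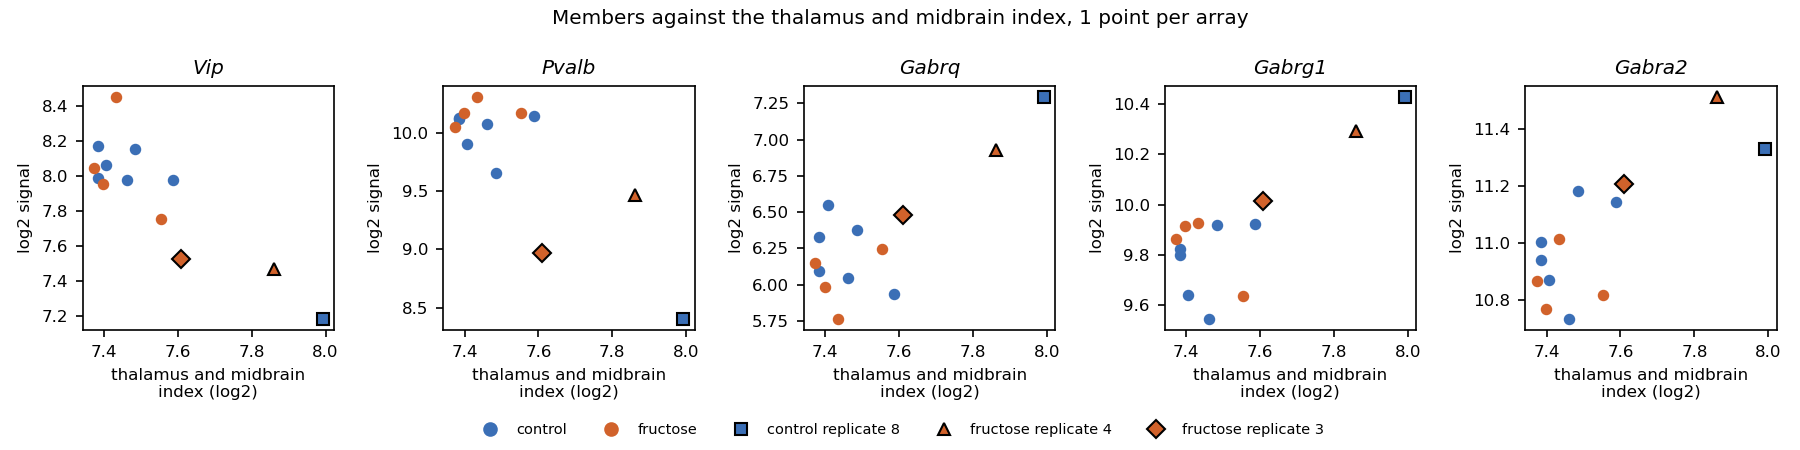
Log2 signal of Gabra2, Gabrg1, Gabrq, Pvalb and Vip against the thalamus and midbrain index on the 13 arrays, coloured by maternal diet. Control 8 and fructose 4 lie to the right of the others, high in the 3 subunit genes and low in Pvalb and Vip.

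With the thalamus and midbrain index as a covariate, chosen after seeing the data, the diet interval narrowed to -0.26 to 0.46 for Pvalb and to -0.25 to 0.15 for Vip. Gabrq then had an interval of -0.40 to 0.14, and 0 of the 27 genes passed for diet.

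The astrocyte index, from 9 markers, passed for 2995 of 15624 probe sets (19.2%) and for 4 of the 27 genes (14.8%), a share not above that of the table. By direction, 3 genes were higher with it (10.1% of probe sets were) and 1 lower (9.04% of probe sets were). Slc6a11, the astrocyte transporter, had a slope of 1.17 ± 0.23 (adjusted p = 0.00731), r = 0.825 (permutation p = 0.0009) and rho = 0.648 (permutation p = 0.0199). Gabrg1, a subunit that astrocytes are also known to use, had a slope of 1.51 ± 0.29 (adjusted p = 0.00687), r = 0.82 (permutation p = 0.00144) and rho = 0.758 (permutation p = 0.00386). These 2 genes passed whichever single array was left out. Within the diet groups, Gabrg1 had r = 0.872 in control (exact permutation p = 0.00635) and 0.831 in fructose arrays (exact permutation p = 0.0694), with rho = 0.821 (exact p = 0.0341) and 0.886 (exact p = 0.0333). Slc6a11 had r = 0.944 in control (exact permutation p = 0.000397) but 0.00686 in fructose arrays (exact permutation p = 0.992), with rho = 0.964 (exact p = 0.00278) and 0.0857 (exact p = 0.919). The Slc6a11 relation was thus not seen within the fructose group. There the index ran only from 10.71 to 10.86, against 10.50 to 10.99 in control, which limits what an r near 0 can show. The difference in r between the groups was not tested.

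Gabra2, with a slope of 1.12 ± 0.36 (adjusted p = 0.0431), and Gabrr1, at -0.65 ± 0.21 (adjusted p = 0.0432), passed narrowly. Gabrr1 is dim, brighter than only 21.7% of genes, each by the mean of its brightest probe set. The index was lowest on control 2 and control 1, the 2 arrays with a narrow distribution. Without them r was 0.765 for Gabrg1, 0.636 for Slc6a11, 0.558 for Gabra2 and -0.365 for Gabrr1, and 0 of the 27 genes passed. Without control 8, fructose 4 and fructose 3, r was 0.725 for Gabrg1, 0.858 for Slc6a11, 0.432 for Gabra2 and -0.576 for Gabrr1. Gfap and Aqp4 made up 32.0% and 16.8% of the variance of the index, and Slc1a2 had r = 0.234 with the mean of the other markers. The part of the narrow distribution in these slopes was not tested.

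The other 6 indices passed for 0 of the 27 genes, and for few probe sets in all: cortex and hippocampus 0.0896%, striatum 0.0256%, brainstem and spinal cord 0%, hypothalamus 0.0064%, olfactory bulb 0% and meninges 0.774%. Gabra5, looked at because of its known use in hippocampus and after its values were seen, had r = 0.746 (permutation p = 0.0008) and rho = 0.802 (permutation p = 0.00134) with the cortex and hippocampus index. Its r was 0.788 without the 2 arrays farthest from the index median, and its slope of 1.42 ± 0.33 had an adjusted p of 0.178 over all probe sets, so it is not called. Neurod6 and Fezf2 made up 46.3% and 31.4% of the variance of that index. Emx2, Bhlhe22 and Nrn1 had r of -0.074, 0.106 and 0.112 with the mean of the other markers. With the striatum index Gabra5 had r = -0.618 (permutation p = 0.0234) and rho = -0.775 (permutation p = 0.00276).

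**Figure D4:**
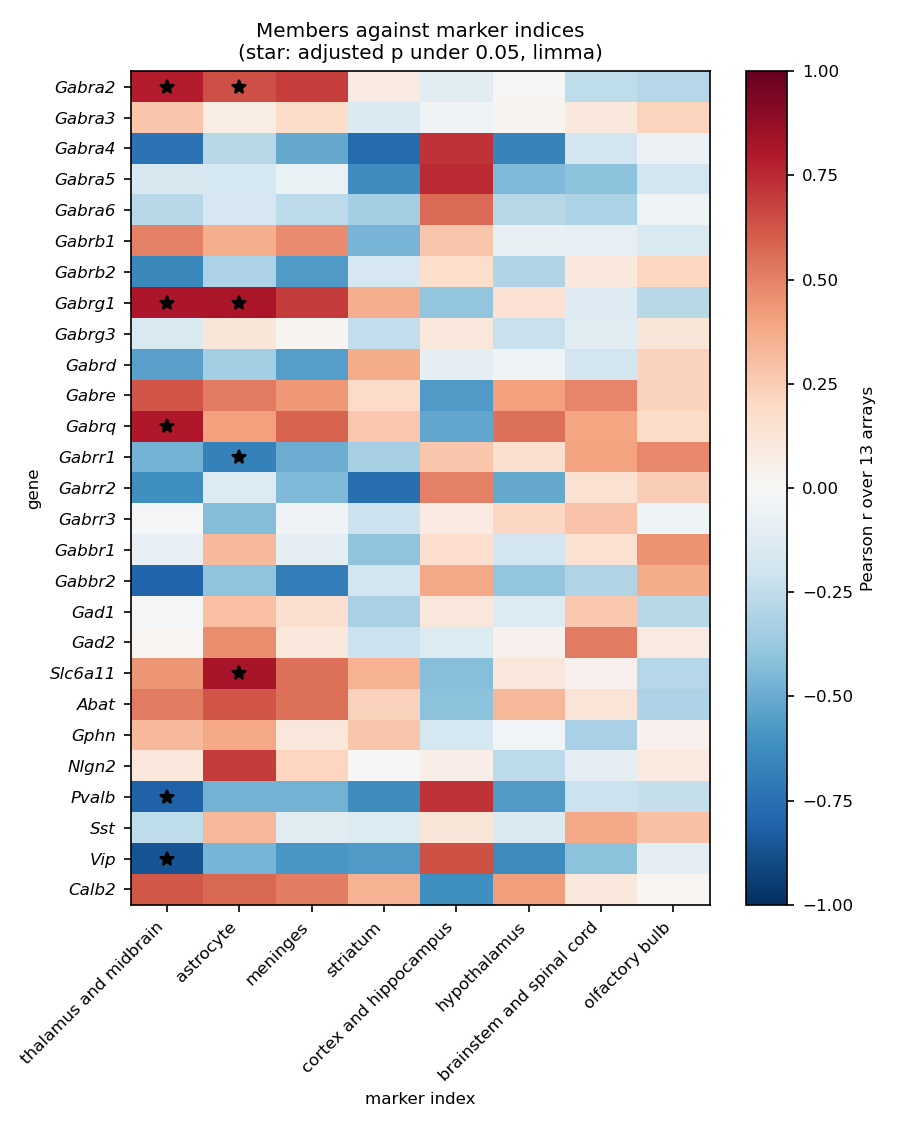
Pearson r over 13 arrays between each of the 27 genes and the 8 indices, with marks on the relations past an adjusted p of 0.05 in limma. The marks are 5 in the thalamus and midbrain column and 4 in the astrocyte column.

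Among the genes themselves, 351 pairs were compared over the 13 arrays, and 10 passed after adjustment over the pairs, 7 positive and 3 negative. The median r of all pairs was 0.104, and 206 were above 0. All 13 arrays share the same normalisation. For each pair that passed, r is also given without the 2 arrays farthest from the median of the gene named first.

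Gad1 and Gad2, the decarboxylases, rose and fell together with r = 0.84 (permutation p = 0.00029, adjusted p = 0.0298), rho = 0.806 and r = 0.754 without 2 arrays. Neither gene passed with any of the 8 indices.

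Vip, Pvalb and Gabra4 varied together. Gabra4 and Pvalb had r = 0.819 (permutation p = 0.00025, adjusted p = 0.0298) and rho = 0.616, and r was 0.596 without 2 arrays. Gabra4 and Vip had r = 0.847 (permutation p = 0.00034, adjusted p = 0.0298) and rho = 0.754, and r was 0.599 without 2 arrays. Pvalb and Vip had r = 0.827 (permutation p = 0.00098, adjusted p = 0.0406) but rho = 0.418, and r was 0.536 without 2 arrays. Gabrq ran against Pvalb with r = -0.86 (permutation p = 0.00088, adjusted p = 0.0406) and rho = -0.846, and r was -0.669 without 2 arrays. Gabrb1 ran against Gabrd with r = -0.84 (permutation p = 0.00058, adjusted p = 0.0339) and rho = -0.703. Fructose 4, with the highest Gabrb1 at 11.08 and the lowest Gabrd at 8.02, was an extreme of both, and r was -0.686 without 2 arrays.

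Subunit genes that lie side by side on a chromosome could be set apart, since most GABA-A genes sit in clusters. In the gene order of GRCr8, 12 pairs of the measured subunit genes lay within 5 coding-gene positions of each other. Their median r was 0.429, with 9 above 0 and 2 past the threshold, against a median of 0.073 over the other 93 pairs of subunit genes, with 52 above 0 and 1, a negative one, past it. The pairs share genes, so no test of that difference was made.

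Gabra2 and Gabrg1, direct neighbours, had r = 0.855 (permutation p = 0.00015, adjusted p = 0.0298), rho = 0.857 and r = 0.719 without 2 arrays. Gabre and Gabrq, of the X-linked cluster with Gabra3, had r = 0.833 (permutation p = 0.00053, adjusted p = 0.0339), rho = 0.735 and r = 0.692 without 2 arrays. Being neighbours did not go with a high r in every case: adjacent Gabrb1 and Gabra4 had r = -0.025, and Gabra2 and Gabra4 of the same cluster had r = -0.392, neither past the threshold. Gabrq with Vip also passed by the permutation test (r = -0.806, adjusted p = 0.0406), with rho = -0.423 (permutation p = 0.153) and r = -0.444 without 2 arrays. Slc6a11 with Abat passed too (r = 0.816, adjusted p = 0.0425 by the permutation test), with rho = 0.725 and r = 0.533 without 2 arrays.

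The share of all probe sets as strongly correlated with the first gene of a pair, in either direction, was 0.045% for Gad1 with Gad2, 0.154% for Gabrb1 with Gabrd, 0.198% for Gabra4 with Vip and 0.256% for Gabre with Gabrq. It was 0.557% for Gabra4 with Pvalb, 0.582% for Gabrq with Pvalb, 0.717% for Gabra2 with Gabrg1, 1.28% for Slc6a11 with Abat, 1.53% for Gabrq with Vip and 1.75% for Pvalb with Vip.

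No pair passed without control 8 and fructose 4, or without control 1 and 2, where the smallest adjusted p was 0.0607.

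**Figure D5:**
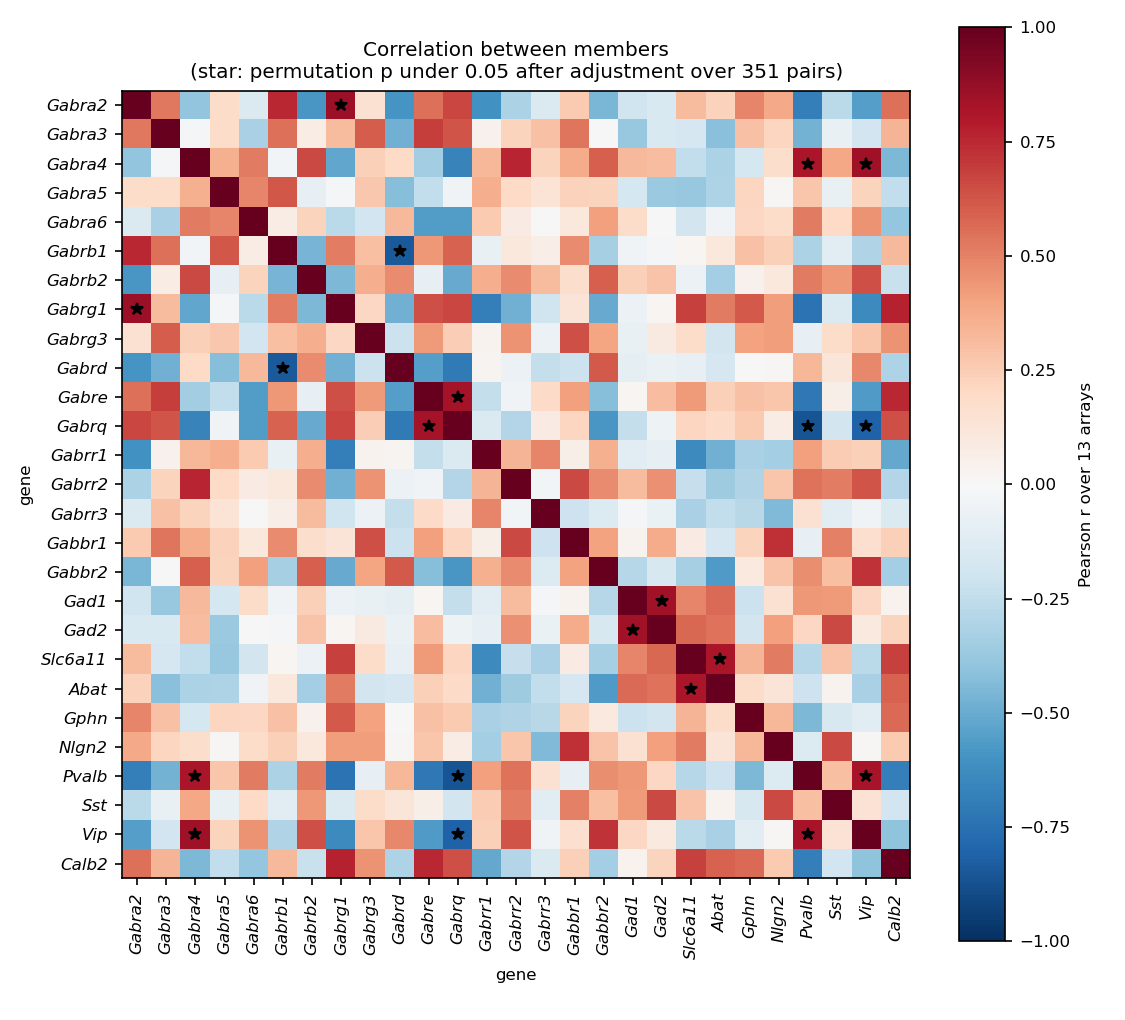
Pearson r over 13 arrays for the 351 pairs of the 27 genes, ordered by class, with marks on the 10 pairs past an adjusted p of 0.05. Gad1 with Gad2 and Gabra2 with Gabrg1 are among the 7 positive marks, and the 3 negative ones are Gabrq with Pvalb, Gabrq with Vip and Gabrb1 with Gabrd.

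The rest of the GABA pathway was read from a list of 32 genes of transport, chloride handling, receptor traffic and anchoring, of which 25 were measured. None passed for diet, 21 of the 25 were higher in the fructose group, and their median difference was 0.030 log2 units. The count rested on the 2 arrays with a narrow distribution: without control 1 and 2 it was 13 of 25, with a median of 0.0042. Over all probe sets 8453 of 15633 were higher, and 8035 without control 1 and 2. Gabarapl1, of receptor and autophagosome traffic, differed by 0.13 ± 0.05, Slc12a5, the chloride exporter KCC2, by 0.11 ± 0.06, Zdhhc3, which palmitoylates gamma subunits, by 0.08 ± 0.05, and Slc38a1, a glutamine carrier, by 0.07 ± 0.04. Of 30 further genes of interneuron types and lineage, 25 were measured, 13 were higher, none passed and the median was 0.00055. Lhx6 and Lhx8, transcription factors of the medial ganglionic eminence, differed by -0.06 ± 0.05 and 0.06 ± 0.05, Tac3 by -0.20 ± 0.22, and Kcnc1, a channel of fast-spiking cells, by 0.11 ± 0.12.

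Markers of the tissue and of its neighbours were set beside these counts. Of all probe sets, 8453 of 15633 were higher in the fructose group, and 8035 without control 1 and 2. In the fructose group 7 of 8 neuron markers and 6 of 9 astrocyte markers were higher. The same held for 5 of 7 markers of cortex and hippocampus, 6 of 10 of striatum, 4 of 8 of thalamus and midbrain, 5 of 9 of brainstem and spinal cord and 2 of 12 of hypothalamus. It held for 2 of 7 markers of olfactory bulb, 7 of 9 of meninges, 1 of 9 of cerebellum, 2 of 7 of retina and pineal, 2 of 6 of choroid plexus, 2 of 6 of pituitary and 3 of 4 of blood. Several of these counts rested on control 1 and 2: without them, 2 of 9 meninges markers, 1 of 4 of blood and 5 of 12 of hypothalamus were higher. None of these genes passed for diet, and their part in the differences of the GABA genes was not tested, other than for the thalamus and midbrain index above.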

How the data were processed

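RNA of rat brain without cerebellum was measured on 13 Affymetrix gene arrays, 7 of the control and 6 of the fructose group. The authors deposited log2 signals for 29214 probe sets. Per the submitters' processing notes, RMA and R 3.0.1 were used; the annotation behind the table is not given in the sources used here. Genes came from the platform annotation: 15310 probe sets had 1 gene symbol, 323 several and 13581 none. The symbols of all 27 genes were current in the RefSeq gene table of GRCr8.

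For 15633 probe sets, those with 1 or several genes, models were fitted with limma 3.58.1 in R 4.3.3 (lmFit, eBayes), with no filter on dim probe sets, Benjamini-Hochberg adjustment over all of them and a threshold of 0.05. Fits against an index left out the probe sets of the index genes. Correlations over the 13 arrays used 100000 permutations, 2-sided, in numpy 2.4.6, with ranks from scipy 1.17.1. The smallest p these can give is 1e-05. The exact p within a diet group came from all orderings of its arrays. Adjustment for pairs was over the 351 pairs. An index with 2 separate groups of arrays would have had no pooled r, and none had. Scripts were tested on simulated data. The number of arrays limits the precision.

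The genes and lists were chosen with earlier results of these data known. All 27 genes are described. Relations with an index are named where they passed, pairs up to the 8 with the smallest p, and from each list of further pathway or interneuron genes up to 4 with the smallest unadjusted p for diet; Gabra5 with the cortex index, the other 2 pairs that passed, and unlike neighbours were named after their values were seen. Alternatives were array weights, quantile normalisation again, the replicate number as a block, a filter on dim probe sets, the diet as a term, standardized indices, and leaving out arrays. Promoter sequences are from RefSeq, GRCr8, for 24 of the 27 genes; there was none for Abat, Gabra2 and Calb2.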

Additional observations from a re-analysis of the deposited data

Results flagged for a closer look

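In 10 of 54 groups (27 genes, 2 diets) the highest or lowest array stood apart from the rest of its group by Dixon's test, where chance alone gives about 1 in 20 groups. That is 18.5% of these groups, and over all probe sets it was 10.2% of 31266 groups. Control 8 was such an array for 4 genes (14.8%), where it was for 2.4% of all probe sets, fructose 4 for 2 (7.41% against 2.67%) and fructose 7 for 2 (7.41% against 2.17%). These shares are descriptions, without a test. On control 8, Gabrg1, a gamma subunit, was at 10.43 against 9.54 to 9.92 on the other control arrays, and Calb2, of calretinin cells, at 8.67 against 7.06 to 7.60. The next 2 genes are also given for control 8. Pvalb, of fast-spiking interneurons, was at 8.40 against 9.66 to 10.14, and Vip, of interneurons that inhibit others, at 7.18 against 7.98 to 8.17. On fructose 4, Gabrb1 was at 11.08 against 10.30 to 10.48 on the other fructose arrays, and Gabrd, of receptors outside the synapse, at 8.02 against 8.76 to 9.15. On fructose 7, Gabra4 was at 11.19 against 10.85 to 10.97, and the dim cerebellar subunit Gabra6 at 5.91 against 5.55 to 5.62. On control 1, the rho subunit Gabrr1 was at 7.04 against 6.55 to 6.76. On control 2, Nlgn2, of inhibitory synapses, was at 9.28 against 9.48 to 9.61.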

How the results depend on the processing

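The count of GABA genes past the threshold for diet was 0 in every alternative run, also over all probe sets. Of 643 differences of single genes under these alternatives, 95 had the opposite sign, over 21 genes, and 6 genes kept theirs; 0 passed, and the cause was not tested. Signal over background is not in the table, so how far it limits dim genes such as Gabra6, Gabre, Gabrq, Gabrr1 and Gabrr3 cannot be given. The replicate numbers did not pair the arrays: same-numbered deviations correlated between -0.335 and 0.187, and 0 of 6 numbers matched best with itself.

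The fructose group has no replicate 5, so the replicate block gives the same difference as leaving out control 5. A sign change there is counted under both settings. With the replicate block, fructose minus control in log2 units turned to Gabra2 -0.002182, Gabra3 0.0005396, Gabra4 0.02667, Gabra6 -0.0004051, Gabrg3 0.008825, Gabre 0.001214, Gabrr2 0.0196, Gabrr3 -0.001494 and Gad2 0.04132. With array weights it turned to Gabra2 -0.07204, Gabra6 -0.02178, Gabrg3 0.02497 and Gabrr3 -0.01491, and with quantile normalisation again to Gabra2 -0.02248 and Gphn -0.002492. Without control replicates 1 and 2 it turned to Gabra2 -0.08898, Gabra4 0.004906, Gabra5 0.01383, Gabrg1 -0.03679, Gabrr1 0.03623, Slc6a11 -0.02302 and Nlgn2 -0.01666. With the thalamus and midbrain index as a covariate, chosen after seeing the data, it turned to Gabra2 -0.006926 and Gabra4 0.003103. Leaving out each array in turn, or control 8 with fructose 4 (chosen after seeing the data), gave differences on both sides of 0 in 18 genes: -0.06745 to 0.01067 for Abat, -0.03646 to 0.02686 for Gabbr2, -0.09404 to 0.05482 for Gabra2, -0.06385 to 0.03088 for Gabra3, -0.04958 to 0.02667 for Gabra4, -0.2378 to 0.07948 for Gabra5, -0.04371 to 0.07179 for Gabra6, -0.02555 to 0.2012 for Gabrd, -0.08251 to 0.05974 for Gabre, -0.0811 to 0.02258 for Gabrg3, -0.2496 to 0.03693 for Gabrq, -0.06424 to 0.01782 for Gabrr1, -0.158 to 0.0196 for Gabrr2, -0.03072 to 0.04881 for Gabrr3, -0.05001 to 0.04622 for Gad2, -0.005936 to 0.05499 for Gphn, -0.1507 to 0.2556 for Pvalb and -0.189 to 0.01533 for Vip.

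For the thalamus and midbrain index, 0 genes passed with standardized markers, with the replicate block, without control 8, and without control 8 and fructose 4, and 0 to 6 when each array was left out in turn. For the astrocyte index, 0 passed with the replicate block and without control 1 and 2, and 2 to 4 when each array was left out. Leaving out 1 array gave 0 to 2 genes for the cortex and hippocampus index (2 without fructose 4), 0 to 1 for hypothalamus (1, Calb2, without control 8) and 0 to 2 for meninges (2 without fructose 3 or fructose 8). With standardized markers, 2 passed for striatum. Apart from the thalamus and midbrain settings given with their totals above, these counts lack the number of all probe sets that passed in the same setting. They are therefore not read as a result about the genes. Of the pairs of genes, 6 passed with quantile normalisation again, 0 without control 1 and 2, and 0 without control 8 and fructose 4.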
